A study of Homo sapiens with 3 samples.

Results

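The mitochondrial respiratory chain moves electrons through complexes I to IV and uses the resulting proton gradient to make ATP in complex V. Complex I (NADH dehydrogenase) and complex II (succinate dehydrogenase) feed electrons to ubiquinone, complex III (the cytochrome bc1 complex) passes them to cytochrome c, and complex IV (cytochrome c oxidase) hands them to oxygen. Mitochondrial DNA encodes a few core subunits of complexes I, III, IV and V, while the remaining subunits and the assembly factors are made from nuclear genes. Their nuclear genes were followed here in HEK293, a long-established human cell line made from embryonic kidney by transformation with adenovirus. Members were taken by name, whatever their counts: symbols without a hyphen that start with NDUF, UQCR, COX4, COX5, COX6, COX7, COX8 or ATP5, plus SDHA, SDHB, SDHC, SDHD and CYC1. This gave 98 members of 26485 names in the tables, of which 45 belong to complex I, 4 to complex II, 10 to complex III, 19 to complex IV and 17 to complex V. The other 3 names are pseudogenes (ATP5EP2, NDUFAF4P1 and UQCRBP1) and were kept out of the sums for complexes. NDUFA4, a subunit first assigned to complex I, was placed in complex IV, and ATP5SL, whose name recalls ATP synthase, was placed with the complex I assembly factors.

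The study holds 3 libraries of HEK293 cells grown in serum-supplemented medium, replicates of 1 condition, so there is no contrast between groups. Gene-assigned counts were 412066, 483114 and 289241 in replicates 1, 2 and 3. Whether the replicates are separate cultures is not stated, so each SD and p-value describes the spread between these 3 samples and may be technical. Levels are given as CPM (counts per 1000000 of the normalised library size). A single count was worth 2.29, 2.31 and 3.30 CPM in the 3 libraries, and a name with no count could still lie below the value of 3 counts, which is 6.86, 6.92 and 9.89 CPM. Of 12 genes listed as markers of HEK293, 11 had a count and 8 had one in every library. A count in every library was found for 29.2% of all names and 33.4% of protein-coding names. The summed level of the markers ran from 184 to 283 CPM. Of the 12, 10 share exonic bases with a gene on the opposite strand, KRT8 and KRT18 with each other over 525 bp. The keratin gene KRT8 had 27, 31 and 29 counts and the neurofilament gene NEFL had 16, 12 and 22, while PAX2 had none and PAX8 had 1 count in all. KRT18, the keratin that pairs with KRT8, had 1, 0 and 0 counts and NEFM had 0, 1 and 0. VIM had 26, 10 and 9 counts, against 1218, 563 and 745 for VIM-AS1 on the other strand. Most members had few counts, and for those counting error is a large part of the value.

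Many members were detected, few of them well. No count in any library was found for 20 of the 98 members (20.4%), against 45.3% of all names and 37.3% of protein-coding names. A count in every library was found for 30 members (30.6%), which is near the 29.2% of all names and the 33.4% of protein-coding names. At least 10 counts in every library were found for 8 members (8.16%), near the 9.68% of all names. Without the pseudogenes, the 95 members drew 598, 434 and 478 counts, or 0.133% ± 0.0391 (SD, n = 3) of gene-assigned counts. The Wilson 95% intervals of that share were 0.134% to 0.157%, 0.0818% to 0.0987% and 0.151% to 0.181% in replicates 1 to 3, so replicate 2 lay below the other libraries by more than counting error; such intervals cover counting error only. The median member had a mean level of 3.05 CPM, about the value of 1 count, against 2.197 CPM for protein-coding names. Per kilobase of exon, the median was 1.05 CPM for members and 0.442 CPM for protein-coding names.

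Complex V collected the most counts and complex II the fewest. Summed CPM of complex V was 715, 496 and 864 in replicates 1, 2 and 3, or 692 ± 185 (SD, n = 3). Complex I followed with 357, 337 and 494 CPM, or 396 ± 85.9 (SD, n = 3). Complex V exceeded complex I in each library, and the lowest value of V (495.6 CPM) was only just above the highest of I (494.4 CPM). Complex III had 99.7 ± 14.3, complex IV 85.1 ± 34.1 and complex II 42.1 ± 21.9 summed CPM (SD, n = 3 each). The values of III and IV overlapped and neither was higher in every library; without replicate 2, complex IV stood above complex III. The ranges of IV and II overlapped too, although IV was above II within each library. As shares of the counts of the 95 members, complex V held 52.2% ± 2.64, complex I 30.4% ± 3.88, complex III 7.90% ± 2.27, complex IV 6.40% ± 2.00 and complex II 3.10% ± 1.34 (SD, n = 3 each). Some members share exonic bases with a gene on the opposite strand. They made up 58.8% of complex V, 50% of II, 44.4% of I, 30% of III and 15.8% of IV. The part of this overlap in the levels was not tested.

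**Figure D1:**
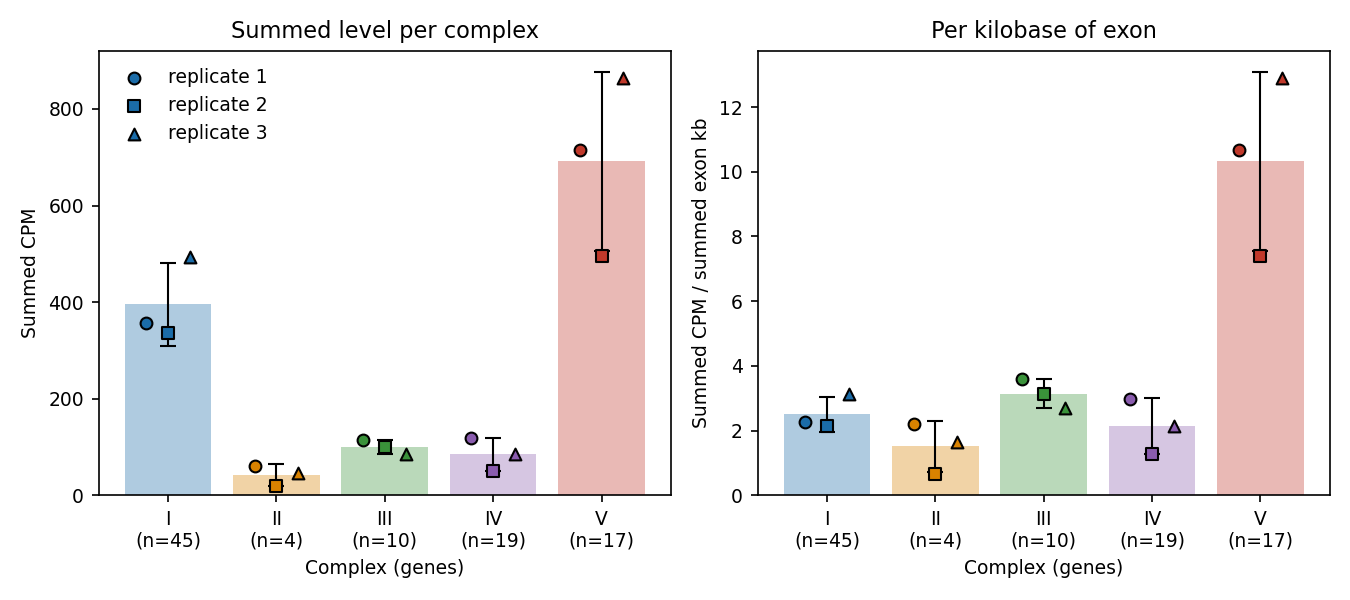
Summed level of the nuclear-encoded genes of each complex in CPM (left) and in CPM per kilobase of summed exon length (right), by complex. Bars are means, error bars SD and points the 3 replicates; complex V stands highest on both scales, at 692 CPM and 10.3 CPM per kb.

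Length did not remove the lead of complex V, but a pair of its genes carried it. Summed CPM per summed kilobase of exon was 10.7, 7.40 and 12.9 for complex V in replicates 1 to 3, all above the 3.59, 3.12 and 2.69 of complex III. The means were 10.3 ± 2.76 for V, 3.13 ± 0.450 for III, 2.50 ± 0.543 for I, 2.14 ± 0.856 for IV and 1.51 ± 0.787 for II (SD, n = 3 each), and from III downward each complex overlapped its neighbour in this order. ATP5J and ATP5F1 together held 78.9% of the counts of complex V. Without them, its summed level was 128, 115 and 201 CPM, or 148 ± 46.3 (SD, n = 3), below the sum of complex I in every library. These sums are not scaled for length or gene number, and complex V has 17 members against 45 in complex I. A level per kilobase without the pair was not computed. The median member tells of the typical gene rather than the top ones: it was 1.62 CPM per kb in V, 1.56 in III, 1.49 in II, 0.811 in I and 0.764 in IV.

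ATP5J and ATP5F1 encode subunits F6 and b of the peripheral stalk, the arm that keeps the catalytic head of ATP synthase from turning with the rotor. ATP5J (now ATP5PF, chromosome 21, 25716503 to 25735673, minus strand, in GENCODE 29 on GRCh38) received 157, 101 and 94 counts, or 301 ± 63.6 CPM (SD, n = 3). ATP5F1 (now ATP5PB, chromosome 1, 111448864 to 111462773, plus strand) received 100, 64 and 107 counts, or 243 ± 103 CPM (SD, n = 3). Per kilobase of exon these levels were 147 ± 31.1 CPM and 71.8 ± 30.5 CPM (SD, n = 3 each), and ATP5J lay above ATP5F1 in each library. ATP5J had a mean CPM above 98.0% of all names and ATP5F1 above 97.6%.

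ATP5J shares its 5′ end with GABPA on the other strand, and ATP5F1 with WDR77, and these stretches are shown because both genes lead the counts; NDUFAF7 and SDHD are added as head-to-head pairs of complexes I and II. GABPA encodes the DNA-binding subunit of GABP (NRF-2), an ETS factor known to bind promoters of respiratory chain genes. WDR77 encodes a partner of the arginine methyltransferase PRMT5. Each line gives the bases between the start sites of both genes, from RefSeq on GRCh38.p14, read 5′ to 3′ on the strand of the respiratory chain gene; for ATP5J it is the start nearer to GABPA, and another lies further upstream. Capitals mark the ETS core CCGGAAG or its reverse complement CTTCCGG, and the NRF1 core GCGCATGC or its reverse complement.
ATP5J and GABPA, chr21:25734905-25734971, minus strand: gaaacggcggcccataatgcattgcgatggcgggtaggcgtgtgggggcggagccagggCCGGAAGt
ATP5F1 and WDR77, chr1:111449257-111449463, plus strand: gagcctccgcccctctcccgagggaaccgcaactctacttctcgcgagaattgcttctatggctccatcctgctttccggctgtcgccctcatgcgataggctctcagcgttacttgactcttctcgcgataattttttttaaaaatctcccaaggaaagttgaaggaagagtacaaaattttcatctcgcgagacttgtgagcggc
SDHD and TIMM8B, chr11:112086757-112086872, plus strand: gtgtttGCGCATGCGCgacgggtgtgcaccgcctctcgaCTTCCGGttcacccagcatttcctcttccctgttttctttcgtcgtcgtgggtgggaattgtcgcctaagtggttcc
NDUFAF7 and CEBPZ, chr2:37231597-37231657, plus strand: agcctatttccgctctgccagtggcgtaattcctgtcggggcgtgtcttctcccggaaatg
The stretch of ATP5J is 67 bases long and ends in an ETS core, and that of SDHD is 116 bases long with an NRF1 core on each strand and 1 ETS core. The stretches of ATP5F1 (207 bases) and NDUFAF7 (61 bases) hold neither set of letters, which says nothing about whether either factor binds there.

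Both cores were counted on both strands in the RefSeq promoter windows, 250 bases before to 50 after each start, of the 75 members that matched the table. NRF1, nuclear respiratory factor 1, and the ETS factor GABP are the textbook activators of this gene set. The NRF1 core was present for 16 members (21.3%), against 3.68% of 27305 genes and 4.89% of 15843 protein-coding genes in the table. By complex it was found for 8 of 39 members of I, 2 of 3 of II, 0 of 7 of III, 2 of 15 of IV and 4 of 11 of V. The ETS core was present for 21 members (28%), against 12.2% of all genes and 16.5% of protein-coding genes. It was found for 6 of 39 members of I, 2 of 3 of II, 3 of 7 of III, 5 of 15 of IV and 5 of 11 of V. No member is shown to be bound by these letters, and neither core occurs inside the other.

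Within ATP synthase, counts were concentrated in ATP5J and ATP5F1 of the peripheral stalk and scarce in the catalytic head. ATP5J and ATP5F1 held 93.1% of the counts of that stalk. All 4 peripheral stalk genes share exonic bases with a gene on the opposite strand, against 1 of the 2 head genes. The part of this overlap in the levels was not tested. The 4 peripheral stalk genes (ATP5J, ATP5F1, ATP5H and ATP5O) summed to 622, 410 and 722 CPM, or 48.7 ± 13.3 CPM per kb (SD, n = 3). ATP5H (subunit d) contributed 13, 13 and 18 counts. ATP5O, the OSCP subunit that joins the stalk to the head, contributed 2, 0 and 0 counts and is named although it falls outside the rule for named genes, because it is the exception among these 4. The head genes ATP5A1 and ATP5B, for subunits alpha and beta, summed to 5.92 ± 6.69 CPM (SD, n = 3), with 4 counts in replicate 3 for ATP5A1 and 2 in replicate 1 for ATP5B. Of the central stalk, ATP5C1 (subunit gamma) had 0, 6 and 4 counts, and ATP5D and ATP5E had no count in any library. The subunit c ring, which turns as protons pass, is encoded by 3 genes for the same mature protein. ATP5G1 had 3, 6 and 3 counts, ATP5G2 had 6, 6 and 13, and ATP5G3 had 4, 0 and 3. Per kilobase of exon, ATP5G2 stood at 5.88 ± 4.21 CPM, ATP5G1 at 3.90 ± 1.34 CPM and ATP5G3 at 0.936 ± 0.812 CPM (SD, n = 3 each), with overlapping values for ATP5G1 and ATP5G2 and with ATP5G3 below both in each library. ATP5S, coupling factor B, had 22, 14 and 13 counts.

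Complex I counts lay mostly outside its catalytic core. The 7 nuclear core genes, whose subunits carry the flavin and the iron-sulfur clusters, summed to 22.9, 25.4 and 49.4 CPM, or 0.826 ± 0.372 CPM per kb (SD, n = 3). The 30 supernumerary genes, for subunits that surround and stabilise the core, summed to 217, 177 and 300 CPM, or 2.59 ± 0.699 CPM per kb (SD, n = 3). The 8 assembly factors, which build the complex and leave it, summed to 117, 134 and 145 CPM, or 4.48 ± 0.486 CPM per kb (SD, n = 3). On the per-kilobase scale the assembly factors lay above the supernumerary genes and these above the core in each library. Exons on the opposite strand overlap 4 of the 7 core genes, 13 of the 30 supernumerary genes and 3 of the 8 assembly factors. NDUFAF7, an arginine methyltransferase that acts on a core subunit, had 15, 17 and 13 counts, and NDUFAF3 had 11, 8 and 16. NDUFA2 led the supernumerary genes with 15, 13 and 22 counts, followed by NDUFB11 with 24, 11 and 14. Per kilobase of exon, NDUFA2 at 30.6 ± 15.7 CPM and NDUFB11 at 29.7 ± 10.7 CPM (SD, n = 3 each) overlapped. NDUFS5, named after its value was seen, reached a similar 29.8 ± 26.3 CPM per kb (SD, n = 3) from 3, 4 and 10 counts, with no gene on the opposite strand. Over the 3 libraries together, 21 of the 45 members of complex I had 1 to 9 counts, 9 had 10 to 29 and 5 had 30 or more. No count was seen for 10 members of complex I, among them NDUFA3, NDUFA6, NDUFA8 and NDUFAB1, the mitochondrial acyl carrier protein.

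**Figure D2:**
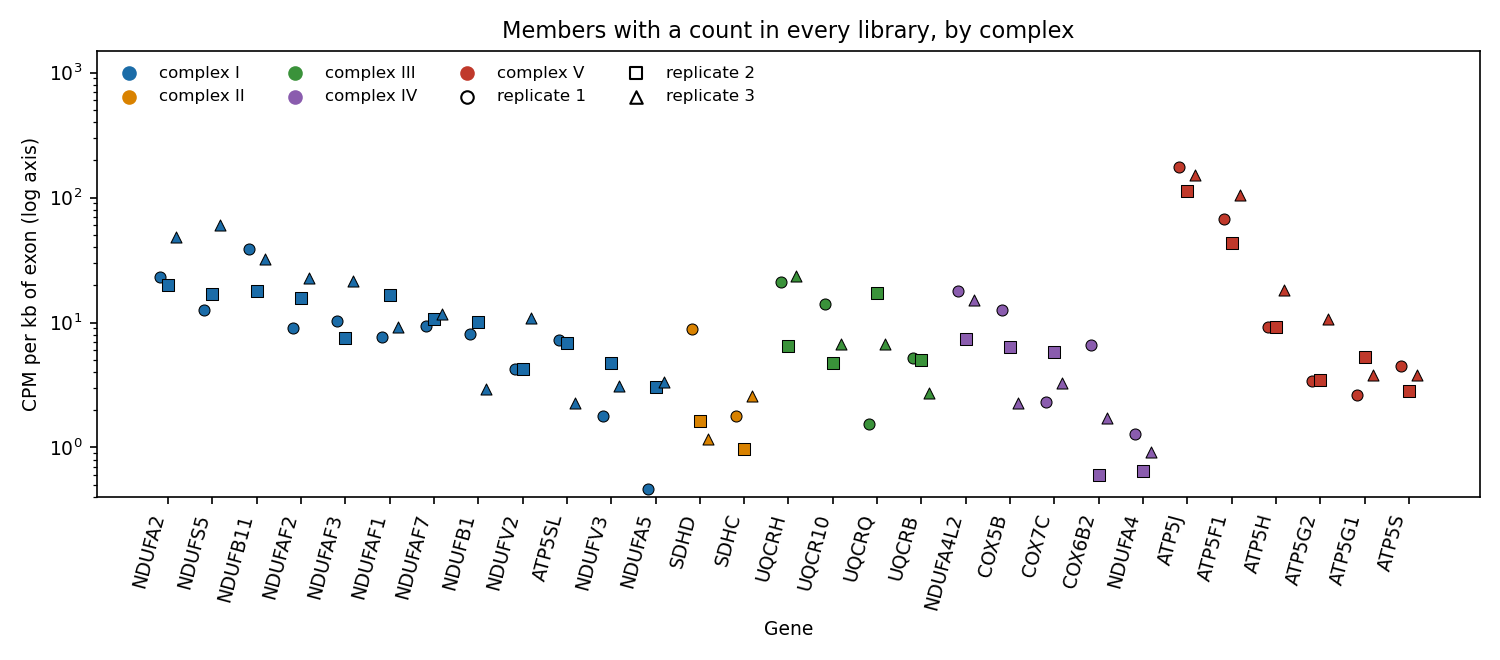
Level in CPM per kilobase of exon (log axis) of the 29 members with a count in every library, pseudogenes left out, coloured by complex; symbols are the 3 replicates. ATP5J and ATP5F1 have the highest means of the members plotted, at 147 and 71.8 CPM per kb.

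In complexes II and III, counts were also split between membrane or accessory subunits and catalytic ones. In complex II the membrane anchors SDHC (11, 6 and 11 counts) and SDHD (11, 2 and 1) summed to 36.1 ± 16.2 CPM (SD, n = 3). The flavoprotein gene SDHA had 4, 0 and 0 counts and the iron-sulfur protein gene SDHB had 1, 0 and 2. Per kilobase of exon the anchors stood at 2.12 ± 0.953 CPM and the catalytic pair at 0.554 ± 0.529 CPM (SD, n = 3 each). Both anchors share exonic bases with a gene on the opposite strand, and neither gene of the catalytic pair does. The part of this overlap in the levels was not tested. In complex III the 6 supernumerary genes stood at 5.13 ± 0.776 CPM per kb, against 0.621 ± 0.629 for CYC1 (cytochrome c1) with UQCRFS1 (the Rieske protein) and 0.530 ± 0.460 for the core protein genes UQCRC1 and UQCRC2 (SD, n = 3 each). UQCRB led with 22, 21 and 8 counts, followed by UQCRH with 13, 4 and 10, UQCRQ with 1, 11 and 3 and UQCR10 with 6, 2 and 2. UQCRC1 and UQCRFS1 had no count in any library. In complex III such overlap is present for 2 of the 6 supernumerary genes, for UQCRFS1 and for neither core protein gene.

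**Figure D3:**
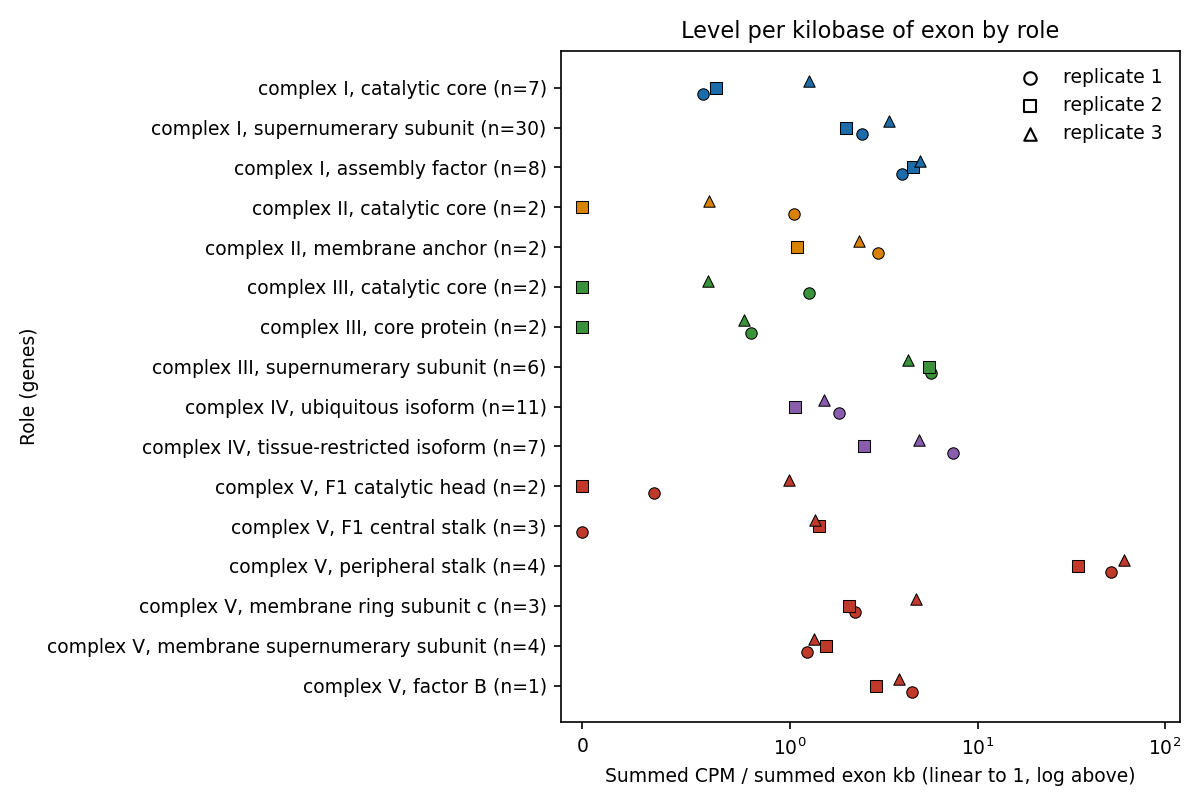
Summed CPM per kilobase of summed exon length (linear to 1, log above) for genes grouped by role within each complex; symbols are the 3 replicates. The peripheral stalk of complex V lies far to the right at a mean of 48.7, and the catalytic core of complex I at 0.826 lies left of its assembly factors at 4.48. ATP5J and ATP5F1 hold 93.1% of the counts of that stalk.

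Complex IV contained the isoforms that differ between tissues, and most were at or near 0. Of its 19 members, 6 had no count, among them COX4I2 (an isoform linked to lung and low oxygen), COX6A2 (the heart and skeletal muscle isoform), COX7A2L (a supercomplex factor) and COX7B2. The 7 tissue-restricted genes summed to 75.4, 25.4 and 49.4 CPM, or 4.91 ± 2.46 CPM per kb, and the 11 ubiquitous ones to 43.4, 25.4 and 36.3 CPM, or 1.46 ± 0.379 CPM per kb (SD, n = 3 each). Most of the former came from NDUFA4L2, a paralog of NDUFA4 known for its induction under low oxygen. The median gene went the other way, at 0 CPM per kb for the tissue-restricted genes and 0.817 for the ubiquitous ones. Exons on the opposite strand overlap 2 of the 7 tissue-restricted genes and 1 of the 11 ubiquitous ones. NDUFA4L2 had 22, 9 and 13 counts and NDUFA4 had 2, 1 and 1, so NDUFA4L2 was higher in all 3 libraries, with a log2 ratio of levels per kilobase of 3.20 ± 0.37 (SD, n = 3). NDUFA4L2 shares 33 bp of exon with SHMT2 on the opposite strand, and NDUFA4 has no gene opposite it. Because the strand option is not known, these levels may not be comparable, which was not tested. Of 8 pairs of related genes examined, NDUFA4L2 with NDUFA4 was the only one with the same gene higher in all 3 libraries. Without replicate 2 there were 4 such pairs. COX6B2, the testis isoform, had 11, 1 and 2 counts against 1, 1 and 0 for the ubiquitous COX6B1. COX4I1 had 1, 0 and 2 counts, COX6A1 had 0, 0 and 1, COX7A1 had 0, 1 and 0, COX7A2 had 2, 0 and 0, and COX7B had 2, 0 and 0. COX8A and COX8C had no count. The remaining pair belongs to complex III, where UQCRH had 13, 4 and 10 counts and its retrocopy UQCRHL had 0, 4 and 0; near-identical copies may share reads, so this pair is uncertain. COX5B had 8, 4 and 1 counts and COX7C had 2, 5 and 2. Of the 19 members of complex IV, 10 had 1 to 9 counts over the 3 libraries together, and NDUFA4L2 alone had 30 or more. Of 10 striated muscle marker genes, 8 had no count, among them ACTA1, MB and MYH7, against 45.3% of all names and 37.3% of protein-coding names. CKM had 3, 0 and 1 counts and MYLPF had 1, 6 and 1. The muscle list summed to between 6.59 and 13.8 CPM. Of its 10 genes, 2 share exonic bases with a gene on the opposite strand, against 10 of the 12 HEK293 markers. No count was seen for 47.2% of protein-coding names with no gene opposite and 23.7% of those with an opposite-strand exon. The 2 marker lists are therefore not alike in this respect.

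The replicates were then compared for spread beyond counting noise, which the design allows for the 8 members with at least 10 counts in every library. With edgeR's Poisson fit across all 2564 such names (dispersion 0, Benjamini-Hochberg adjustment), 4 of the 8 members differed between replicates at an adjusted p under 0.05, near the 45.8% of all names tested. ATP5F1 differed most, with an edgeR adjusted p of 1.3e-06 and CPM of 229, 148 and 353: replicate 3 was high and replicate 2 low. ATP5J, at 359, 233 and 310 CPM, had an edgeR adjusted p of 0.0081, again with replicate 2 lowest. NDUFA2, at 34.3, 29.97 and 72.5 CPM, had an edgeR adjusted p of 0.044, with replicate 3 high. The pseudogene UQCRBP1 (chromosome X, 56737242 to 56737577, minus strand), a copy of UQCRB in the opposite direction to an intron of NBDY, had 23, 52 and 15 counts and an edgeR adjusted p of 0.0014, with replicate 2 high. For NDUFB11, ATP5H, ATP5S and NDUFAF7 the edgeR adjusted p was 0.14, 0.16, 0.52 and 0.87, so no spread beyond counting noise was detectable with these library sizes. When total gene-assigned counts served as library sizes, NDUFB11 was called too, at an edgeR adjusted p of 0.047. The share over all names was then 46.7%. Without replicate 2, ATP5F1 was the only one of 12 members tested that was called, and the share over all names was 9.45%; without replicate 1, ATP5F1, NDUFA2 and UQCRBP1 were called of 9 tested (28.9% over all names), and without replicate 3, ATP5J and UQCRBP1 of 10 (34.3%). When the same edgeR test allowed for the common biological coefficient of variation of 0.276, 0 of the 8 members and 0 of the 2564 names were called, with 0 and 136 at an unadjusted p under 0.05; that coefficient was estimated from the same 3 libraries, so few calls follow from its construction.

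Counts of the members were also set against the opposite strand, because the kit keeps strand but no source used here gives the strand option with which reads were counted. Of the 95 members, 38 (40.0%) share exonic bases with a gene on the opposite strand in GENCODE 29, and these make up 49.5% of the members' exon length. They held 75.8%, 69.1% and 77.0% of the members' counts in replicates 1, 2 and 3, or 74.0% ± 4.23 (SD, n = 3). Over protein-coding names the figures were much the same: 34.3% of names, 40.3% of exon length and 76.0% ± 1.29 of counts (SD, n = 3). At least 10 counts in every library were found for 7 of these 38 members and for 0 of the 49 members with no gene opposite them; over protein-coding names it was 1415 of 6558 and 355 of 9136. Without ATP5J and ATP5F1 the share was 56.0% ± 5.21 (SD, n = 3). Among members with no opposite-strand exon, complex I summed to 190 CPM and complex V to 48.3 CPM, so the order of these sums turned. Such sums are not scaled for the larger number of genes in complex I. The median per kilobase of exon among these members was 1.05 CPM in complex I and 1.92 CPM in complex V, so that order did not turn. Reads from a gene and from its opposite-strand partner cannot be told apart in these tables without that option. If the option did not match the kit, counts under a name would be reads of the opposite gene, and reads with no gene opposite would fall under no feature, the class that held 91.2% of all records. Which setting was used is not known, and its part in the levels given here was not tested.

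The genes opposite the members carried more counts than the members. In the tables, 30 members have 37 such partners, and partners summed to 8561 ± 568 CPM and members to 918 ± 272 CPM (SD, n = 3 each). The ratio of these sums was 9.35, 12.7 and 7.51 in replicates 1, 2 and 3, or 9.85 ± 2.63 (SD, n = 3). Per kilobase of summed exon length the ratio was 5.90 ± 1.57 (SD, n = 3), and the median was 14.6 CPM per kb for partners and 2.24 for their members. Per kilobase, the partner was higher in all 3 libraries in 20 pairs, the member in 8, and neither in 9. At least 10 counts in every library were found for 20 of the 37 partners (54.1%), against 9.68% of all names and 21.6% of matched names with an opposite-strand exon; 4 partners had no count. Of 49 pairs in the annotation, partners outside the tables included, 26 were head to head, 11 tail to tail and 12 had 1 gene inside the other.

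**Figure D4:**
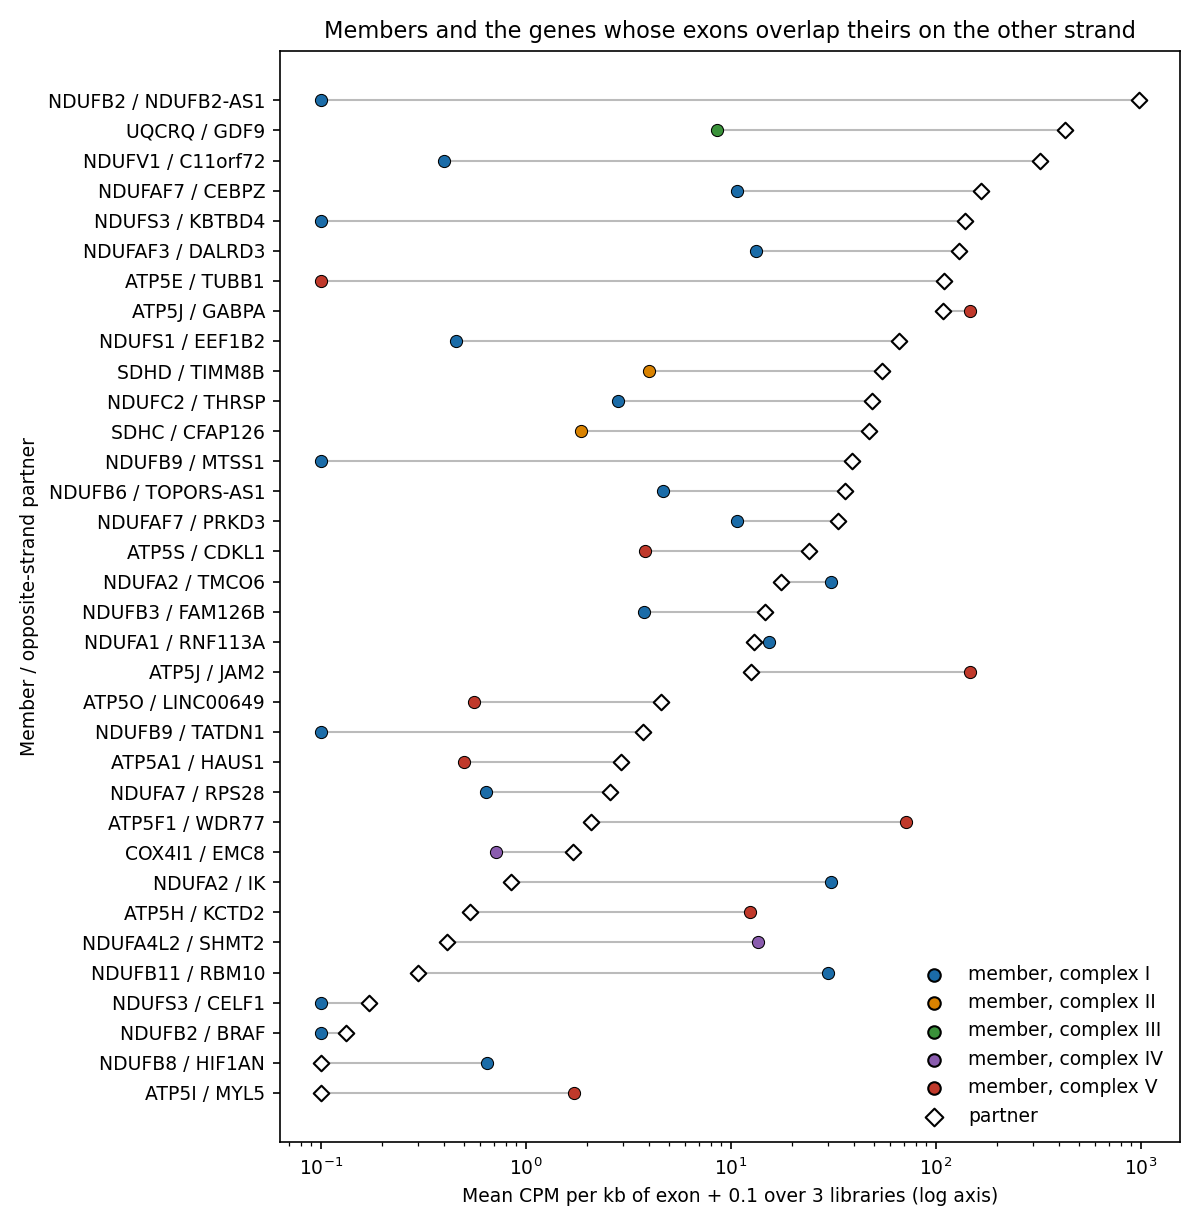
Mean level over 3 libraries in CPM per kilobase of exon, with 0.1 added (log axis), of each member (filled, by complex) and of the gene whose exons overlap it on the opposite strand (open diamonds), for 34 of the pairs in which at least 1 of both genes has a count. NDUFB2-AS1 stands highest at 981 CPM per kb opposite NDUFB2 at 0, and ATP5F1 at 71.8 is among the members that stand above their partner.

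Pairs with few or no counts for the member and a well-counted partner came from several complexes; the pairs in this paragraph were chosen after their values were seen. NDUFB2-AS1, an antisense RNA that lies inside NDUFB2 and shares 321 bp of exon with it, had 855, 462 and 555 counts, while NDUFB2 had none. GDF9, the gene of an oocyte growth factor, had 686, 484 and 461 counts and shares 306 bp with UQCRQ, which had 1, 11 and 3. C11orf72 had 364, 357 and 217 counts and shares 207 bp with NDUFV1, the flavoprotein of complex I, which had 2, 0 and 0. TUBB1, a tubulin gene known from platelets, had 172, 149 and 127 counts and shares 1188 bp, tail to tail, with ATP5E, which had none. KBTBD4, with 221, 191 and 130 counts, shares only 6 bp of exon with NDUFS3, which had none. Both NDUFS3 and NDUFB2 share more exon with another gene that had almost no counts. CELF1 shares 234 bp with NDUFS3 and had 1, 0 and 0 counts. BRAF shares 1239 bp with NDUFB2 and had 0, 1 and 0 counts.

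Partners of the members with the most counts did not follow 1 pattern. GABPA had 301, 172 and 209 counts beside ATP5J with 157, 101 and 94; both were lowest in CPM in replicate 2. Per kilobase of exon the order turned, with ATP5J above GABPA in all 3 libraries at means of 147 and 109 CPM. WDR77 had 2, 1 and 3 counts beside ATP5F1, which was higher in every library; in GENCODE 29 they share 350 bp, while their RefSeq spans do not overlap. JAM2, tail to tail with ATP5J, had 14, 51 and 22 counts. For NDUFAF7, the partners CEBPZ (274, 265 and 175 counts) and PRKD3 (118, 206 and 86) were both higher in each library, also per kilobase. For NDUFAF3 (11, 8 and 16 counts), DALRD3 was higher with 227, 169 and 162 counts, and shares 527 bp of exon. For ATP5S, the partner CDKL1 (59, 80 and 38 counts) was higher likewise. For NDUFA2, TMCO6 had 19, 24 and 26 counts and IK had 4, 0 and 0; NDUFA2 was above both per kilobase in all 3 libraries. KCTD2, opposite ATP5H, had 3, 0 and 0 counts, RBM10, opposite NDUFB11, had 0, 1 and 0, and SHMT2, opposite NDUFA4L2, had 2, 0 and 0. In complex II, TIMM8B (30, 39 and 10 counts) was above SDHD and CFAP126 (23, 19 and 4) above SDHC in each library per kilobase.

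Genes that build or serve the chain but carry other names were counted from lists of 70 genes. No count was seen for 18 and a count in every library for 27 (38.6%), against 29.2% of all names; 12 had at least 10 counts in every library and 7 of these were called by edgeR's Poisson fit, against 45.8% of all names tested. For complex IV, the copper chaperone COX11 had 280, 311 and 280 counts (edgeR adjusted p of 0.00035), with an exon opposite TOM1L1, while 6 of the 23 assembly genes listed had none, including COX17 and SCO1. COX20 was higher still, with 2285, 3410 and 1806 counts, or 6345 ± 1362 CPM (SD, n = 3). It shares 3502 bp of its 4.86 kb of exon with HNRNPU on the opposite strand, which had 29, 18 and 41 counts. For complex I, LYRM2 had 66, 112 and 70 counts (edgeR adjusted p of 0.0048) and COA1 had 31, 14 and 7. For complex III, TTC19 had 80, 87 and 60 counts (edgeR adjusted p of 0.86) and UQCC3 had 88, 38 and 66 (edgeR adjusted p of 1.2e-05). LYRM2, COA1, TTC19 and UQCC3 each have an exon opposite another gene as well. For complex II, SDHAF3 had 10, 1 and 2 counts and SDHAF1 had 0, 4 and 0. For complex V, the inhibitor ATPIF1 had 13, 13 and 2 counts and the assembly factor ATPAF1 had 5, 2 and 0.

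The electron carriers and the regulators of these genes were measured alongside. CYCS, cytochrome c itself, had 30, 22 and 21 counts, or 62.8 ± 10.5 CPM (SD, n = 3), with no opposite-strand exon and an edgeR adjusted p of 0.57. PDSS2, which makes the tail of ubiquinone, had 6, 9 and 11 counts. Among 11 regulators, GABPA led with 591 ± 169 CPM, followed by ESRRA, the estrogen-related receptor alpha, with 407 ± 46.7 CPM (SD, n = 3 each). The edgeR adjusted p was 8.9e-09 for GABPA and 0.17 for ESRRA, and both have an exon opposite another gene. NRF1, whose core was searched above, had no count in any library, nor did TFB2M, PPARGC1A and PPRC1; each could lie below the value of 3 counts given at the start.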

How the data were processed

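Total RNA was extracted with TRIzol, depleted of ribosomal RNA with Ribo-Zero and made into libraries with the NEBNext Ultra Directional kit, per the labels' protocols; the titles say mRNA sequencing. The deposited values are raw counts per gene symbol, made by the authors with Trimmomatic, TopHat2 2.2.5 and HTSeq 0.11.2 on hg38, per the submitters' processing notes. No source used here gives the annotation or the strand option. HTSeq's summary lines (91.2% no feature, 6.77% not unique) were left out.

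CPM came from edgeR 4.0.16 TMM sizes (R 4.3.3). Spread was tested with edgeR for names reaching 10 counts in each library (dispersion 0, intercept alone, deviance against chi-square, Benjamini-Hochberg over 2564). On simulated Poisson counts (3002 genes) it called 32.0% of 50 genes changed 1.5-fold, 76.0% of 50 changed 2-fold, 100% of 49 changed 4-fold and 0.642% of 2803 unchanged. The changed genes were altered in a single replicate, with library sizes known. They were drawn from names with a higher mean count than most members tested reached, so these rates may not hold for those members. All 98 members (18 by older symbol) and 93.1% of names matched GENCODE 29; overlap meant any exonic base. Log2 ratios used a prior of 0.5 CPM per kb. Python 3.11.15, pandas 2.3.3, numpy 2.4.6, scipy 1.17.1 and matplotlib 3.10.9 were used.

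Members, lists and pairs were chosen with earlier results of these data known. Named were, per complex, the 4 members with the highest mean CPM and up to 4 without a count, members with at least 10 counts in every library, isoform pairs, subunit c and SDH genes, the top 2 of each list and opposite-strand partners; other names were chosen after their values were seen. A gene that this rule names is not reported here. Alternatives were DESeq2 1.42.0 size factors, total counts, no filter, a negative binomial null, other overlap rules, pseudogenes included, NDUFA4 in complex I, no length scaling and leaving out each replicate.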

Additional observations from a re-analysis of the deposited data

How the results depend on the processing

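Depth limits every value: at 1 count for the median member, most levels of single genes rest on a handful of reads. Of the recomputed values, 105 stayed near the main value, and all that did not are given here. Near meant within 1.5-fold for numbers of genes or pairs and within 1 SD for other values. Numbers inside that limit could still change: with total gene-assigned counts as library sizes, 5 of 8 members were called (46.7% over all names). Without a count filter 14 of 78 members were called (20.1% over all names), with a negative binomial null 0 (0 over all names), and 1 to 3 when each replicate was left out: 3 of 9 without replicate 1 (28.9%), 1 of 12 without replicate 2 (9.45%) and 2 of 10 without replicate 3 (34.3%). Leaving out members with an opposite-strand exon gave summed CPM of 190 (I), 6.01 (II), 45.5 (III), 44.2 (IV) and 48.3 (V), and a median of 0.783 CPM per kb in complex II. Summing CPM per kb over genes, another unit, gave 222 (I), 7.22 (II), 43.4 (III), 35.5 (IV) and 257 (V). Complex III with its pseudogene rose to 174 CPM, and complex V without ATP5J and ATP5F1 stood at 148 CPM. Leaving out each replicate gave summed CPM of 338 to 449 (I), 31.4 to 56.9 (II), 89.7 to 106 (III), 66.2 to 108 (IV) and 588 to 833 (V). Medians without length scaling were 2.97 (I), 7.03 (II), 3.93 (III), 1.52 (IV) and 4.50 CPM (V), and the median per kb of complex V ran from 1.82 to 2.30 when each replicate was left out. Counted at 10 or more in every library, members numbered 3 (I), 0 (II), 0 (III), 0 (IV) and 4 (V), from 12, 2, 4, 5 and 6 with any count in every library. The share of counts under names with an opposite-strand exon was 68.8% at 100 bp or more, 56.0% without ATP5J and ATP5F1, and 46.1% when RefSeq spans had to overlap. Pairs with the same gene higher in all libraries numbered 1 to 4. The partner ratio was 6.66 without NDUFB2-AS1 and GDF9, and 8.43 to 11.0 when each replicate was left out. Except where the construction leaves out genes or counts, the cause of these shifts was not tested. No paired analysis was possible because the series has 1 group.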
